A study of Mus musculus with 3 samples.

Results

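Foxp3 and 6 other genes that mark regulatory T cells (Treg) were followed in CD4+ T cells labelled Th1, taken from tumours and from lymphoid organs. The 7 genes, Foxp3, Il2ra, Ikzf2, Ikzf4, Nrp1, Lrrc32 and Gpr83, were chosen by name as a list of Treg genes, out of 23337 gene symbols in the deposited tables, and each had a single row in every library. All 7 averaged at least 1 FPKM (sequenced fragments corrected for transcript length and library depth) and so were among the 9800 genes tested. The tumour group was 1 library of Th1 cells from tumours of B16-F10, a melanoma line of C57BL/6 mice. The lymphoid group was 2 libraries of Th1 cells titled as spleen, for which the tissue field also lists lymph nodes and draining lymph nodes. All mice were wild-type C57/Bl6j at an age of 7 weeks. The labels name no marker, reporter or gate by which Th1 cells were told from other CD4+ cells, so whether Treg cells were removed from these samples is not given, and neither the number of animals behind a library nor their independence is stated. P-values therefore reflect only how far these particular libraries differ, possibly for technical reasons. The tumour library was also the shallowest, with about 3270000 sequenced fragments by an estimate from the low values, against 11460000 and 15630000 in lymphoid libraries 1 and 2.

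Regulatory T cells are CD4+ T cells that restrain other immune cells. The forkhead factor Foxp3 holds their identity, and mice without it develop fatal autoimmunity. It works beside Helios (Ikzf2) and Eos (Ikzf4), zinc finger factors of the Ikaros family. At the cell surface, Treg cells carry the IL-2 receptor alpha chain CD25 (Il2ra), neuropilin-1 (Nrp1), a receptor for semaphorins found mainly on Treg cells that arise in the thymus, GARP (Lrrc32), which holds latent TGF-beta, and the peptide receptor Gpr83. Several of these genes are not restricted to Treg cells: CD25 also rises on activated conventional T cells, and neuropilin-1 is found on endothelial and plasmacytoid dendritic cells and GARP on platelets. Treg cells commonly gather in B16 tumours, and Foxp3-positive cells can lie within a CD4+ sort that is not gated on Foxp3 or CD25.

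The promoters of the members whose change passed the test are shown, since these are the genes on which the comparison turns. They are the 250 bases upstream of a gene start in RefSeq (GRCm38.p6), and RefSeq windows matched 4 of the 7 members by symbol. Both Foxp3 starts and Gpr83 lie on the plus strand. Capitals mark matches on either strand to the NFAT core GGAAA, the STAT motif TTCNNNGAA, the forkhead motif TGTTTAC or the RUNX motif TGTGGT.
Foxp3, upstream start, chrX:7579426-7579675: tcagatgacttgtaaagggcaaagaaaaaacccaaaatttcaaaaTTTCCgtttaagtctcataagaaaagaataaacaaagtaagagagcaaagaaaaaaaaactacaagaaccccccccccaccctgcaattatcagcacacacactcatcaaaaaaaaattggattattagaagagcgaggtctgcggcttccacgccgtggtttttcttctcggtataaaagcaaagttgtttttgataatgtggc
Foxp3, downstream start, chrX:7580233-7580482: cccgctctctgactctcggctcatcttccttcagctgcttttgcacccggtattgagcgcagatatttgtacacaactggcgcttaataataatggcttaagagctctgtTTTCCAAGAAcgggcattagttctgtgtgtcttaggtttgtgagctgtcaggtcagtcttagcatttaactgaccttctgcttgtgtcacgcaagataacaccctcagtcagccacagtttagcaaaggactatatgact
Gpr83, chr9:14859960-14860209: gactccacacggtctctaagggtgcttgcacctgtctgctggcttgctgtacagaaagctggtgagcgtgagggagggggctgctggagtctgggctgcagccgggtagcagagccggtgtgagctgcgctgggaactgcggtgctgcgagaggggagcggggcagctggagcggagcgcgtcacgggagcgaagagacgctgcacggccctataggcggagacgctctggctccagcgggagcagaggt
The upstream Foxp3 window held 1 match to the NFAT core and the downstream window held 1 NFAT and 1 STAT match, which overlap, while the Gpr83 window matched none of the 4 motifs. Of 32851 such windows over all genes, 55.6% held the NFAT core, 7.02% the STAT motif, 3.17% the forkhead motif and 14.0% the RUNX motif. A match describes the letters only and does not show binding.

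The 7 genes did not move together between tumour and lymphoid Th1 cells. Foxp3 was lower and Gpr83 higher in the tumour library, and the other 5 members passed no test. Values are FPKM divided by a size factor for each library (0.579 for tumour, 1.29 and 1.33 for the lymphoid libraries), called scaled FPKM, so that the median tested gene had a log2 change of -0.01. Log2 changes are differences of log2(scaled FPKM + 1), which understates changes of low genes, and an adjusted p under 0.05 (limma, Benjamini-Hochberg over 9800 genes) was called. By this rule 12.7% of tested genes were called higher and 9.17% lower, 21.9% in all, against 1 higher and 1 lower of the 7 members, a share near that background. Without regard to the test, 3 members lay above both lymphoid libraries, as 41.3% of tested genes did, and 3 below both, as 42.6% did. The split of calls over all genes, 1246 higher and 899 lower, moved with the scaling, to 837 and 1926 with size factors over every gene above 0, to 465 and 7620 without scaling and to 4122 and 288 with library totals. The members' median log2 change was 0.00, in a range from -0.86 to 1.24. In bulk RNA, fewer cells that carry a transcript and less of it per cell cannot be told apart. The test has 1 residual degree of freedom, from the lymphoid pair, and takes the lone tumour library to vary like them. With the estimated counting error of the tumour library added, 0 of the 7 members were called, against 3.51% of all genes higher and 0.329% lower, while Foxp3 and Gpr83 kept unadjusted p-values of 0.0227 and 0.00682 in that limma fit.

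**Figure D1:**
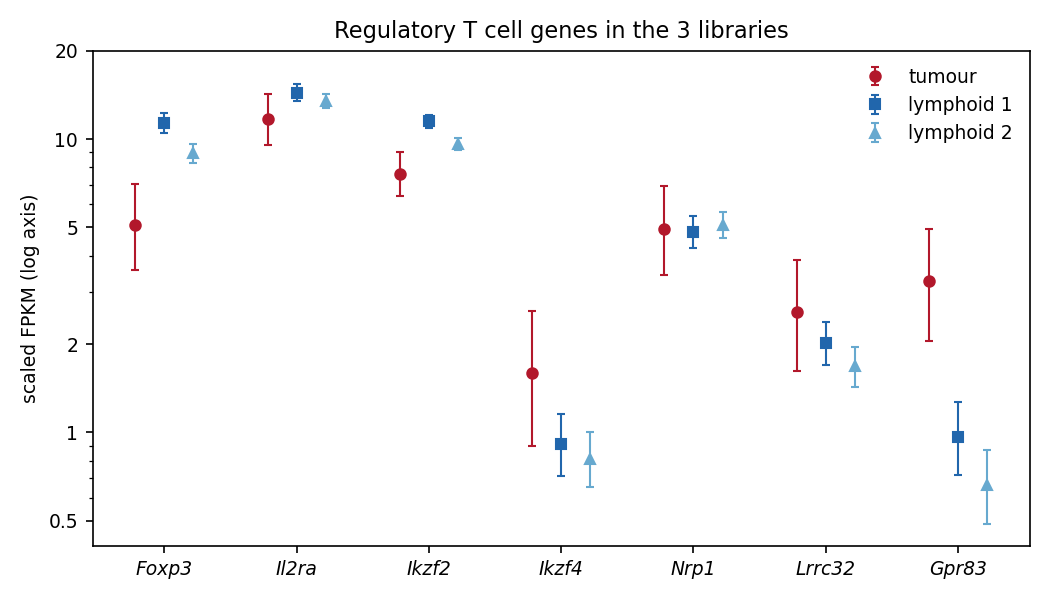
Scaled FPKM (log axis) of the 7 genes in the tumour library (circles) and lymphoid libraries 1 (squares) and 2 (triangles), with 95% intervals that cover estimated counting error only. Foxp3 lies lower in tumour, at 5.08 against 11.3 and 8.93, Gpr83 lies higher, at 3.27 against 0.963 and 0.660, and the tumour value of Nrp1 lies between the lymphoid ones.

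Foxp3 (ENSMUSG00000039521.13, chrX:7573644-7595245 in GRCm38, GENCODE M21) was at 5.08 scaled FPKM in the tumour library, against 11.3 and 8.93 in lymphoid libraries 1 and 2. The tumour value lay below both lymphoid values, by 2.23-fold and 1.76-fold, while the lymphoid libraries differed by 1.27-fold. The log2 change was -0.86 with SE 0.19 and a 95% interval of -1.34 to -0.39 (limma adjusted p = 0.0309). As deposited, before scaling, Foxp3 was at 2.94 FPKM in tumour, against 14.7 and 11.9. The tumour value rested on about 36.9 fragments, and its counting interval of 3.58 to 7.01 scaled FPKM did not reach the intervals of the lymphoid libraries, of which the lower ran from 8.29 to 9.61. Adding that counting error left an adjusted p of 0.216 for Foxp3 in limma. The call was also lost in limma with no filter on low values (adjusted p = 0.113), with the filter raised to 5 FPKM (adjusted p = 0.0699) and with library totals (adjusted p = 0.568, log2 change -0.22), and over the alternatives that gave a test the adjusted p ran from 0.00269 to 0.568. Library totals moved the median of all tested genes to 0.62.

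Foxp3 exons share 590 bases with Ccdc22 and 266 with Ppp1r3f on the opposite strand, and 853 with the RNA gene Flicr on the same strand. Reads over these bases cannot be assigned with certainty, since the use of strand in counting is not given in the sources used here. As deposited, Ccdc22 was at 0.946 FPKM in tumour and at 3.23 and 3.82 in the lymphoid libraries, and Ppp1r3f at 0.813, against 0.908 and 0.942. Once scaled they ran in opposite directions. Ccdc22 was at 1.63 scaled FPKM in tumour, against 2.49 and 2.87 (limma adjusted p = 0.0846), and Ppp1r3f, which fell short of the filter, at 1.40, against 0.701 and 0.707. Their part in the Foxp3 values was not tested.

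Ikzf2, which encodes Helios (ENSMUSG00000025997.13, chr1:69531214-69687245), was at 7.63 scaled FPKM in the tumour library, against 11.5 and 9.64 in the lymphoid libraries. The tumour value was below both, and the log2 change of -0.42 (95% interval -0.86 to 0.02) was not called (limma adjusted p = 0.151). It rested on about 134.1 tumour fragments, the most of any member. With size factors taken over every gene above 0, the set first foreseen, which left the median of all tested genes at -0.25, Ikzf2 had a log2 change of -0.68 and was called lower (limma adjusted p = 0.0454).

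Ikzf4, which encodes Eos, a Foxp3 partner in gene silencing (ENSMUSG00000002578.17, chr10:128630843-128645991), was at 1.59 scaled FPKM in tumour and at 0.911 and 0.812 in the lymphoid libraries. The tumour value was above both, with a log2 change of 0.48 (95% interval 0.07 to 0.88, limma adjusted p = 0.0938), and it rested on about 15.5 fragments. The direction thus ran opposite to that of Ikzf2 as measured, though neither was called, and the log2 change of Ikzf4 was -0.15 without scaling.

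Il2ra, the CD25 chain that gives the IL-2 receptor its high affinity (ENSMUSG00000026770.5, chr2:11642807-11693193), was the most abundant member in all 3 libraries. It was at 11.7 scaled FPKM in tumour and at 14.4 and 13.5 in the lymphoid libraries. The tumour value was below both by 1.23-fold and 1.15-fold, and the log2 change of -0.23 (95% interval -0.64 to 0.17) was not called (limma adjusted p = 0.352).

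Nrp1 (ENSMUSG00000025810.9, chr8:128358604-128503363) was at 4.96 scaled FPKM in tumour, against 4.83 and 5.09 in the lymphoid libraries. The tumour value lay between the lymphoid values, and the log2 change was 0.00 with a 95% interval of -0.37 to 0.37 (limma adjusted p = 0.999). With counting error added that interval ran from -0.64 to 0.63, on about 33.8 tumour fragments.

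Lrrc32, which encodes GARP (ENSMUSG00000090958.2, chr7:98489283-98502181), was at 2.57 scaled FPKM in tumour and at 2.02 and 1.68 in the lymphoid libraries. The tumour value was above both, with a log2 change of 0.33 (95% interval -0.07 to 0.73) that was not called (limma adjusted p = 0.202). The tumour value rested on about 22.3 fragments, and the change was -0.46 without scaling, where it was called lower together with most genes (limma adjusted p = 0.0471).

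Gpr83, a receptor raised in Treg cells of the mouse (ENSMUSG00000031932.14, chr9:14860210-14870789), was at 3.27 scaled FPKM in tumour, against 0.963 and 0.660 in the lymphoid libraries. The tumour value exceeded the lymphoid values 3.40-fold and 4.96-fold, and Gpr83 was the only member at least 2-fold away from each lymphoid library in the same direction, as 8.76% of tested genes were above and 6.32% below. The log2 change was 1.24 with SE 0.18 and a 95% interval of 0.80 to 1.69 (limma adjusted p = 0.00870), on about 22.2 tumour fragments. It was the only member higher in tumour as deposited too, at 1.90 FPKM against 1.25 and 0.880, where it was not called (limma adjusted p = 0.0577). With counting error the adjusted p in limma was 0.112.

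Genes as low as Gpr83 and Ikzf4 were more often higher in the tumour library, and the part of this in the member values was not tested beyond the subtraction given here. Odorant and vomeronasal receptor genes, which T cells are not known to use, averaged 0.264 scaled FPKM in tumour, against 0.0112 and 0.0443 in the lymphoid libraries, over 1411 genes that remained once the top 2% by mean were dropped. Over all 1440 the means were 0.662 in tumour, against 0.0583 and 0.1005. Of 1404 genes at a lymphoid mean of 0.5 to 1.2 scaled FPKM, with no filter, 31.1% were at least 2-fold above each lymphoid library, and the median log2 change was 0.31. Of these genes, 12.1% had a change as large as that of Gpr83 and 38.7% as large as that of Ikzf4. With the mean of the 1411 subtracted from each library, Gpr83 was still called higher (3.01 in tumour, against 0.952 and 0.615; limma adjusted p = 0.0130). Ikzf4 was then at 1.33, against 0.900 and 0.768, with a limma adjusted p of 0.194, and Foxp3 remained called lower (limma adjusted p = 0.0276). Either subtraction takes more from tumour than from lymphoid. It can only deepen the log2 change of a gene lower in tumour, so it is no check of the Foxp3 call. With the mean of all 1440 subtracted, Ikzf4 was at 0.929, against 0.852 and 0.712, and Lrrc32 at 1.91 lay between the lymphoid values of 1.96 and 1.58, so that the excess of both depends on the genes left out. Gpr83 was then at 2.61, against 0.905 and 0.559 (limma adjusted p = 0.0194), and Foxp3 at 4.42, against 11.3 and 8.83 (limma adjusted p = 0.0229).

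**Figure D2:**
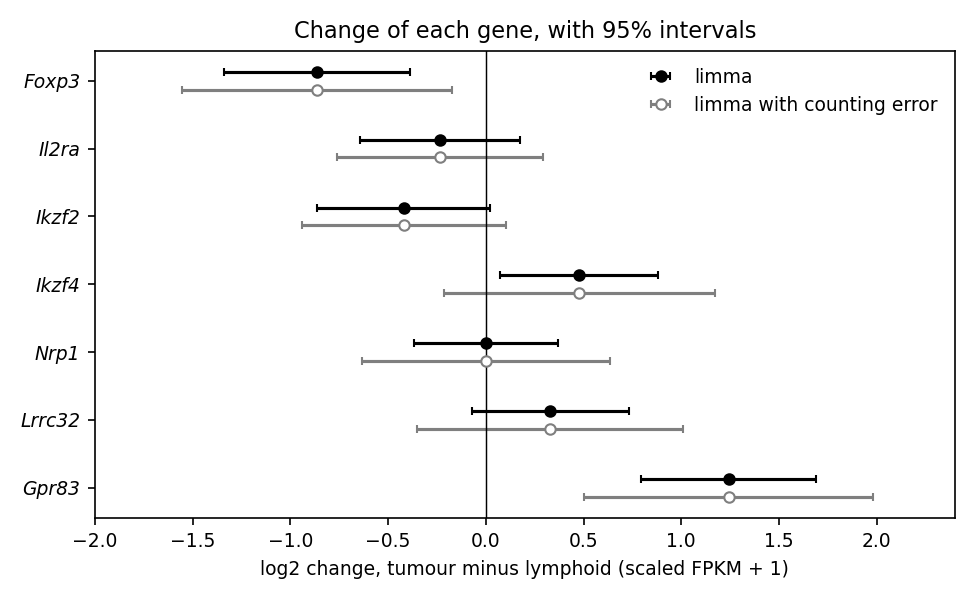
Log2 change of each member, tumour minus lymphoid, on log2(scaled FPKM + 1), with 95% intervals from limma (filled) and from limma with the tumour library's counting error added (open). The intervals of Foxp3 lie below 0 and those of Gpr83 above 0 under both, before adjustment for the number of genes, and those of Nrp1 are centred at 0.

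Relative to the T cell genes of the same library, Foxp3 was lower in tumour, which mostly restates its scaled values. The geometric mean of Cd3d, Cd3e, Cd3g and Cd4, the CD3 chains of the T cell receptor complex and the CD4 coreceptor, was 89.9 scaled FPKM in tumour, and 96.6 and 91.5 in the lymphoid libraries. Foxp3 stood at 5.65% of that level in tumour and at 11.7% and 9.76% in the lymphoid libraries. Il2ra stood at 13.0% in tumour, against 14.9% and 14.8%, and Nrp1 at 5.51%, against 4.99% and 5.57%. Scaling on these 4 genes left Foxp3 called lower (limma adjusted p = 0.0368) and Gpr83 called higher (limma adjusted p = 0.00949). Its size factors, 0.563 for tumour and 1.35 and 1.32 for lymphoid, were close to the main ones, so these are not separate results.

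The balance among the members differed between the libraries, given here as ratios of scaled FPKM with no test. For each unit of Foxp3 there were 2.31 of Il2ra in tumour, against 1.27 and 1.51 in the lymphoid libraries. The ratio of Nrp1 to Foxp3 was 0.975 in tumour, against 0.426 and 0.570. Gpr83 reached 0.644 of the Foxp3 level in tumour, against 0.0850 and 0.0739. All of these ratios share the tumour Foxp3 value and so are not separate results. Ordered by level per length, Il2ra stood first and Ikzf4 last in tumour, where Foxp3 at 5.08 and Nrp1 at 4.96 did not differ beyond their counting intervals (3.58 to 7.01 and 3.43 to 6.93). In the lymphoid libraries Ikzf2 and Foxp3 stood next to each other behind Il2ra, at 10.6 ± 1.31 and 10.1 ± 1.70 (SD, n = 2), and Ikzf4 at 0.862 ± 0.0696 and Gpr83 at 0.812 ± 0.215 were the lowest. Within each lymphoid library Ikzf2 exceeded Foxp3 (11.5 against 11.3 and 9.64 against 8.93), while the order of Ikzf4 and Gpr83 differed (0.911 against 0.963 and 0.812 against 0.660). The counting intervals of either pair overlapped in each lymphoid library, so these orders are not settled. The 7 members summed to 36.8 scaled FPKM in tumour, against 46.0 and 40.3 in the lymphoid libraries.

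Genes that activated Treg cells share with activated conventional T cells had 8 of 17 tested members called higher in tumour and 0 lower, beside 12.7% and 9.17% of all tested genes, with a median log2 change of 0.57 beside -0.01. With counting error 5 were called higher. The list was chosen with earlier results of these data known, so its share above that of all genes is a description and not a test. The inhibitory receptor gene Tigit was at 70.7 scaled FPKM in tumour, against 8.59 and 8.06 in the lymphoid libraries (log2 change 2.94, limma adjusted p = 0.000707). Gzmb, which encodes granzyme B, was at 11.4, against 0.839 and 1.16 (log2 change 2.64, limma adjusted p = 0.000884), and Lag3, another inhibitory receptor gene, at 10.8, against 1.03 and 1.24 (log2 change 2.47, limma adjusted p = 0.000838). The other calls, chosen for mention after their values were seen, were Ctla4 (1.59), Tnfrsf9 (1.49), Icos (1.21), Tnfrsf18 (1.03) and Tnfrsf4 (0.85), given as log2 changes. Tnfrsf18 encodes GITR and Tnfrsf4 OX40, costimulatory receptors that Treg cells carry at rest. Ccr8, a chemokine receptor of tumour Treg cells, was below the filter, at 2.37 in tumour and at 0.555 and 0.0878 in the lymphoid libraries, and was not tested.

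IL-2 signalling genes had 3 of 10 tested members called higher and 1 lower, beside 12.7% and 9.17% of all tested genes. The feedback genes Socs3 (27.2 scaled FPKM in tumour, against 8.73 and 9.11; log2 change 1.51) and Cish (12.0, against 6.01 and 6.25; log2 change 0.86) and the signal transducer gene Stat5a (8.65, against 5.14 and 4.98; log2 change 0.67) were higher. Socs2, another STAT5-induced feedback gene, was lower (2.37 in tumour, against 6.89 and 6.15; log2 change -1.16). Their adjusted p-values in limma were 0.00324, 0.0161, 0.0309 and 0.00671, and Socs3 alone was called with counting error. Stat5a was not called with size factors over every gene above 0 (limma adjusted p = 0.0911). The other receptor chains were not called: Il2rb was at 75.4 in tumour, against 86.9 and 75.2, and Il2rg at 94.0, against 119.9 and 102.8. Il2 itself, which Foxp3 represses, was below the filter, at 1.18 in tumour and at 0.694 and 0.441 in the lymphoid libraries.

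**Figure D3:**
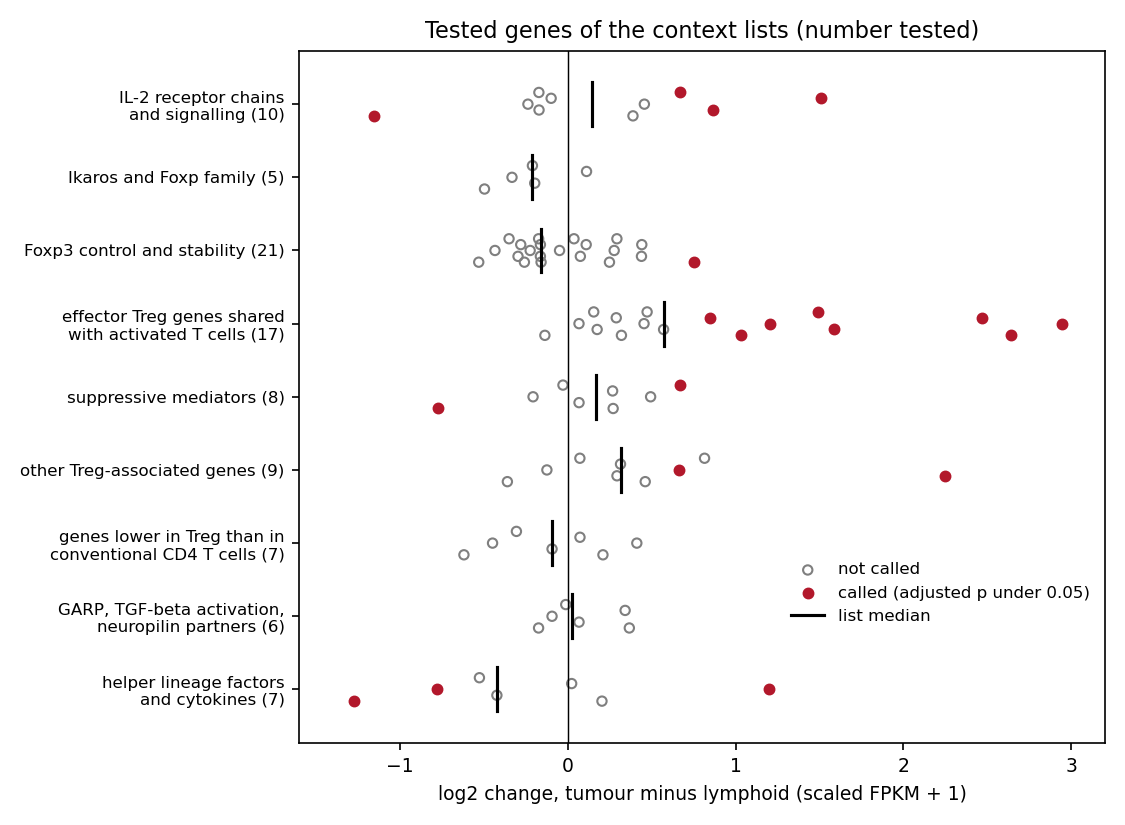
Log2 changes, tumour minus lymphoid, of the tested genes in 9 lists around Foxp3, with called genes filled, others open and the list median as a bar. The 8 calls of the effector list all lie to the right of 0, while the Ikaros and Foxp family, the genes lower in Treg cells and the GARP and neuropilin partners hold 0 calls each. Of all tested genes 21.9% were called.

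Genes that control Foxp3 transcription and stability had 1 call among 21 tested, beside 21.9% of all tested genes called in either direction, and the list median was -0.16. Rel, the NF-kB subunit c-Rel that acts on Foxp3 in developing Treg cells, was higher, at 10.9 scaled FPKM in tumour, against 6.78 and 5.49 in the lymphoid libraries (log2 change 0.75, limma adjusted p = 0.0377, and 0.165 with counting error). It was not called with size factors over every gene above 0 (limma adjusted p = 0.1004). Of the relatives of the members, Ikzf1, Ikzf3, Ikzf5, Foxp1 and Foxp4, 0 of 5 were called, too few genes to set apart from that share. Ikzf1, which encodes Ikaros, was at 32.1 in tumour, against 41.5 and 40.0 (log2 change -0.33, limma adjusted p = 0.237).

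Suppressive mediators had 1 of 8 called higher and 1 lower, near the 12.7% and 9.17% of all tested genes. Cd274, which encodes PD-L1, was at 9.42 scaled FPKM in tumour, against 5.58 and 5.53 (log2 change 0.67), and Fgl2, which encodes a secreted fibrinogen-like protein of Treg cells, at 4.67, against 8.80 and 8.61 (log2 change -0.78), with limma adjusted p-values of 0.0316 and 0.0210. Il10 was at 0, against 0 and 0.0383, and did not pass the filter. Areg (1.83 in tumour, against 0.118 and 0.0843) and Il12a (0.428, against 0 and 0.0394) also fell short of it. Both lay above both lymphoid libraries, as did 72.4% of untested genes above 0 in some library. Among 9 tested other Treg-associated genes, Dusp4, a MAP kinase phosphatase gene, was higher (6.48 in tumour, against 0.418 and 0.747; log2 change 2.25, limma adjusted p = 0.00156), as was the homing receptor gene Gpr15 (3.80, against 2.13 and 1.94; log2 change 0.66, limma adjusted p = 0.0327). Folr4, the folate receptor 4 gene now named Izumo1r, was at 16.6, against 22.8 and 20.5, and was not called (limma adjusted p = 0.200). Dusp4 averaged 0.768 FPKM as deposited in the lymphoid libraries and so entered the test only through the tumour library, as did no other gene of the 9 lists. With counting error Dusp4 was called and Cd274, Fgl2 and Gpr15 were not. With size factors over every gene above 0, Cd274 (limma adjusted p = 0.0934) and Gpr15 (limma adjusted p = 0.0832) were not called.

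Genes that Treg cells express less than conventional CD4+ T cells had 0 calls among 7 tested, with a median log2 change of -0.09. Beside this, 21.9% of all tested genes were called in either direction. Il7r, the IL-7 receptor alpha chain, was at 88.9 scaled FPKM in tumour, against 92.3 and 77.4 (log2 change 0.07, limma adjusted p = 0.837). Partners of GARP and neuropilin-1 had 0 calls among 6 tested, beside the same 21.9%. Tgfb1, whose latent product GARP holds, was at 21.7, against 20.1 and 21.2 (log2 change 0.07, limma adjusted p = 0.811). Pcsk1n, whose peptide PEN acts on Gpr83, was listed at 0 in all 3 libraries. Among 7 tested helper lineage genes, Bcl6, the follicular helper factor, was higher (6.80 in tumour, against 2.50 and 2.29; log2 change 1.20). Ifng (4.53, against 12.9 and 12.0; log2 change -1.28) and Zbtb7b, the CD4 lineage factor ThPOK (7.01, against 12.3 and 13.2; log2 change -0.78), were lower. Their limma adjusted p-values were 0.00522, 0.00535 and 0.0245, and 0 of the 3 were called with counting error. Over all 9 lists, 16 of 89 tested genes (18.0%) were called higher and 4 (4.49%) lower, beside 12.7% and 9.17% of all tested genes. These lists were chosen with earlier results of these data known, so the shares describe them only.

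Of the markers of CD4+ T cells in general 0 of 10 were called in either direction, beside 21.9% of all tested genes. Their sum was 789.2 scaled FPKM in tumour, against 824.4 and 823.6 in the lymphoid libraries. With size factors over every gene above 0, Cd3g was called lower (log2 change -0.77, limma adjusted p = 0.0490). Markers were also read for the other cells known to carry Nrp1 or Lrrc32. Most of these are low, and of 11168 untested genes above 0 in some library 72.4% were above both lymphoid libraries, as were 65.4% of the 1404 low genes and 41.3% of tested genes. Of 6 endothelial markers, 4 were above both lymphoid libraries, and the sum was 9.38 in tumour, against 9.79 and 8.95. Most of that sum was Pecam1 (7.70, against 9.76 and 8.80), which T cells also express, while Cdh5 was at 0.777, against 0 and 0.0234. Of 5 platelet markers 4 were above both, with a sum of 2.70, against 0.136 and 0.195, and Pf4 was at 0 in all 3 libraries. Plasmacytoid dendritic cell markers were above both in 5 of 6 and summed to 18.04, against 16.77 and 15.98. Most of that sum was Bst2 (13.5, against 8.35 and 9.11) and Ccr9. Tcf4 was at 1.05, against 0.163 and 0.135, and Siglech at 0.336, against 0.330 and 0.191. The single call in that list was lower in tumour: Ccr9, a homing receptor gene also used by T cells, was at 2.74, against 7.92 and 6.51 (log2 change -1.13, limma adjusted p = 0.0105). The part of these cells in the Nrp1 and Lrrc32 values was not tested.

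Beside the same 72.4% of untested genes, markers of further cell types were above both lymphoid libraries in 7 of 9 monocyte and macrophage genes (sum 9.43, against 1.45 and 1.20), 2 of 2 CD8 genes (5.27, against 0.558 and 0.814) and 4 of 5 conventional dendritic cell genes (2.27, against 0.884 and 0.946). The same held for 2 of 6 B cell genes (6.40, against 2.21 and 2.09), 3 of 6 fibroblast genes (1.42, against 0.0765 and 0.216) and 4 of 8 melanocyte genes (3.35, against 1.35 and 1.52). NK cell markers summed to 18.4, against 25.6 and 22.9, with 2 of 4 above both. Most of that sum was Klrb1c (13.4, against 23.6 and 20.1), the only NK marker below both. The 2 above both were Ncr1 (1.47, against 0 and 0.169) and Klra8 (0.993, against 0 and 0). The 1 tested marker in each of the CD8, B cell and monocyte lists was called higher, beside 12.7% of tested genes. Cd8b1 was at 4.77, against 0.494 and 0.783 (limma adjusted p = 0.00255). Cd22 was at 5.76, against 1.45 and 1.56 (limma adjusted p = 0.00288), and Itgam at 3.95, against 1.01 and 0.674 (limma adjusted p = 0.00579). Cd8b1 entered the test only through tumour (0.639 and 1.04 FPKM as deposited in lymphoid). The tested NK and melanocyte markers were not called. Defining genes were at 0 in the tumour library for macrophages (C1qb and C1qc), B cells (Cd79a, Cd79b, Ms4a1 and Pax5), conventional dendritic cells (Itgax), fibroblasts (Col1a2, Col3a1 and Dcn) and melanocytes (Mlana and Slc45a2). The part of these cells in the member values was not tested.

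**Figure D4:**
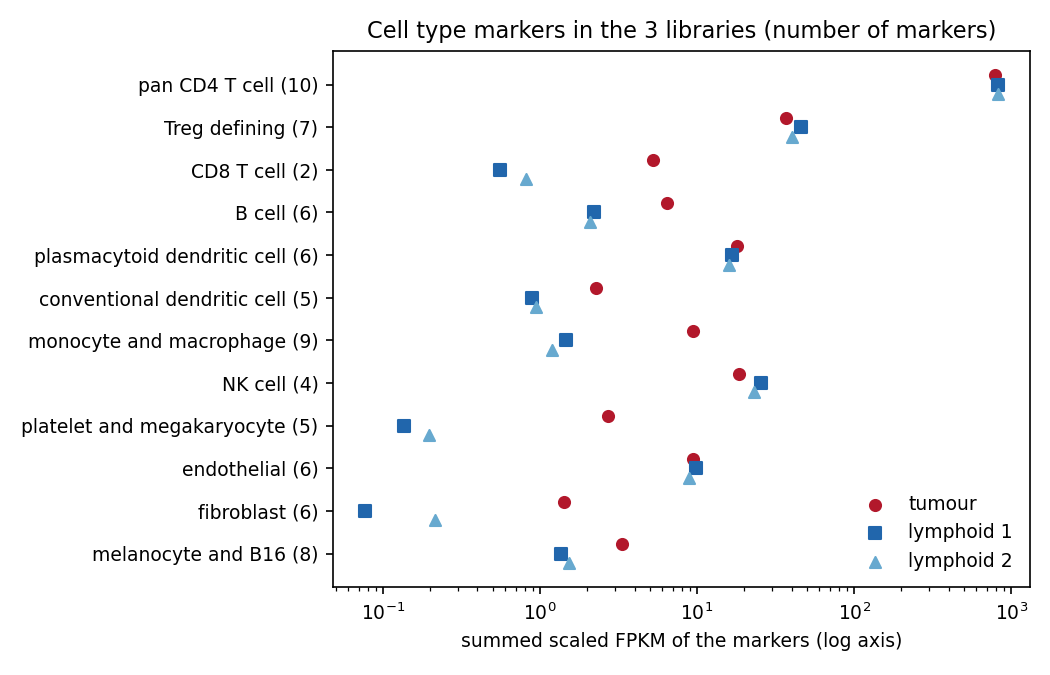
Summed scaled FPKM (log axis) of cell type markers in the tumour library (circles) and lymphoid libraries 1 (squares) and 2 (triangles), with the number of markers in brackets. CD4 T cell markers lie at 789.2 in tumour against 824.4 and 823.6, the Treg genes at 36.8 in tumour against 46.0 and 40.3, and most other types below 10.

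To name the genes most like Foxp3, tested genes named only by clone or gene model were left out. Of the rest, the 5 whose profile over the 3 libraries was nearest to that of Foxp3 were Snora36b, Dck, Tmem126b, Chchd7 and Art2a-ps. Likeness was the Euclidean distance of centred log2(scaled FPKM + 1), which ran from 0.00336 to 0.0309 for these 5. Over all tested genes, those left out included, 67 lay within 0.1, so that such closeness over 3 libraries is common. Of the members, Ikzf2 was nearest to Foxp3, at 0.367, and Gpr83 farthest, at 1.72.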

How the data were processed

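Total RNA of CD4+ T cells (300000 per library, per the labels' protocols) was depleted of ribosomal RNA, built into strand-specific libraries and read from both ends over 75 bp. The submitters' processing notes name mm10, kallisto and DESeq2, with no version or role, and which program made the values is not given in the sources used here. FPKM is the unit assumed for the deposited values: per the file headers the tables have a tracking_id column, and the deposited sums of 279397, 955281 and 1175316 for tumour and lymphoid libraries 1 and 2 differ, which TPM would not. The unit is an inference.

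Where a symbol had several entries, that of highest mean was used. Values were divided by median-of-ratios size factors over genes above 0 in all libraries that averaged 1 FPKM or more. This gene set was chosen after it was seen that all genes above 0, the set first foreseen and kept as an alternative, left the median tested gene at -0.25. The test was limma 3.58.1 (R 4.3.3, mean-variance trend, pseudocount 1). On simulated data of 9800 genes with 200 changed it recovered 88.8% of log2 changes of 1, with 11.8 false calls on average, given the lymphoid spread and no added counting error. The changed genes were drawn only from those of higher lymphoid level. The recovery thus does not apply to genes as low as Gpr83, Ikzf4 and Lrrc32. Depth was estimated from the commonest value of FPKM times length among genes with 1 transcript (within 3%), with GENCODE M21 lengths; which transcript the authors' lengths used is not known, so fragment numbers are approximate and intervals cover counting error only. The alternative with counting error widens the SE by the Poisson error of the tumour library for 9714 genes with a length.

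Members and lists were chosen with earlier results of these data known. The text names all members and, of each list, up to the 3 largest called rises and falls, or, without any call, the member of highest level. Other genes were chosen after their values were seen.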

Additional observations from a re-analysis of the deposited data

How the results depend on the processing

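The sign of the log2 change of 5 of the 7 members changed under at least 1 scaling, Foxp3 and Gpr83 being the exceptions. With library totals, though, the tumour value of Foxp3 lay between the lymphoid values. Neither member call held in every alternative. Without scaling, where the median of all tested genes was -0.96, 0 members were called higher and 5 lower. Log2 changes were then -1.31 for Il2ra, -1.45 for Ikzf2, -0.15 for Ikzf4, -0.96 for Nrp1, -0.46 for Lrrc32 and 0.49 for Gpr83, and 5 context genes were called higher and 66 lower, and 465 of all genes higher and 7620 lower. With library totals 3 members were higher and 0 lower, with -0.22 for Foxp3, 0.46 for Il2ra, 0.25 for Ikzf2, 0.91 for Ikzf4, 0.62 for Nrp1 and 0.85 for Lrrc32, with 48 and 0 context genes and 4122 and 288 of all genes. With size factors over every gene above 0, the set first foreseen, 1 member was higher and 2 lower (Ikzf2 at -0.68), with 11 and 11 context genes and 837 and 1926 of all genes; Rel, Stat5a, Cd274 and Gpr15 were no longer called. Scaled to CD4 T cell genes, Nrp1 was at 0.053.

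With no filter 2 members were called higher (Ikzf4 at 0.48 with limma adjusted p = 0.0495) and 0 lower (Foxp3 at -0.86), and 7364 of all genes higher. At a mean of at least 5 FPKM, Ikzf4, Lrrc32 and Gpr83 left the test, 0 members were called in either direction (Foxp3 at -0.86), 6 context genes were higher, and 211 of all genes were higher and 191 lower. With counting error 0 members were called (Foxp3 at -0.86, Gpr83 at 1.24), with 7 and 0 context genes and 341 and 32 of all genes higher and lower. Pseudocounts of 0.1 and 5, summed rows and subtraction of either receptor gene mean, the last chosen after seeing the data, kept both member calls. For Foxp3 the subtraction is no check, since it takes more from tumour and could only deepen the change. Subtracting the mean of every receptor gene left 1778 of all genes lower, and Rel and Gpr15 uncalled.

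Without a lymphoid replicate in turn there is no residual degree of freedom and no test. Log2 changes then ranged from -1.02 to -0.71 for Foxp3, -0.28 to -0.19 for Il2ra, -0.54 to -0.30 for Ikzf2, 0.44 to 0.52 for Ikzf4, -0.03 to 0.03 for Nrp1, 0.24 to 0.42 for Lrrc32 and 1.12 to 1.36 for Gpr83.

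Among other named genes, log2 changes turned negative without scaling for Cd274 (-0.36), Cish (-0.19), Gpr15 (-0.20), Il7r (-1.09), Rel (-0.30), Stat5a (-0.35), Tgfb1 (-1.05), Cd3d (-1.10) and Cd4 (-0.94). They turned positive with library totals for Ikzf1 (0.39), Cd3e (0.68) and Cd3g (0.26) and with T cell scaling for Cd3e (0.0085), and negative with size factors over every gene for Il7r (-0.22), Tgfb1 (-0.21), Cd3d (-0.23) and Cd4 (-0.070). The cause was not tested.
No paired analysis was possible because the tumour group has 1 library with no replicate number. Depth limits Ikzf4, Lrrc32 and Gpr83 most, at 15.5 to 22.3 estimated tumour fragments.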
